A study of Mus musculus with 6 samples.

Results

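The genes described here handle iron in mouse round spermatids, the haploid cells that follow meiosis in the testis. They are 10 genes picked by name: the receptors Tfrc and Tfr2, the transporter Slc11a2, the reductase Steap3, the regulators Ireb2 and Aco1, the ferritins Fth1, Ftl1 and Fthl17a, and the ferritin-turnover receptor Ncoa4. Rows for 8 of the 10 were read, out of 22770 gene rows in the ribosome profiling table, and all 8 were dense enough to be tested. Aco1 and Steap3 are not analysed here. The list was chosen from earlier results of the same comparison, in which Tfrc was among the few called genes and Fthl17a had been named, so the genotype values of these 2 genes are given as a description with no p-value.

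Ribosome footprints, the short stretches of RNA that a ribosome covers, were sequenced from 3 wild-type samples and 3 samples labelled Eif5a SKO, all of testis round spermatids. EIF5A is the hypusine-bearing factor that helps ribosomes past difficult peptide bonds. The labels do not spell out SKO, and the table's headers write cKO in its place. The sources used here give neither the promoter or agent behind the deletion nor the strain or ages. The series' design text, written for an accessibility assay, describes 3 sorted mice per group, and the p-values below measure only the spread between these samples. Values are FPKM, footprint fragments scaled to length and to the mapped total of the library. Whether that length was the coding part or the whole transcript is not stated. Levels of different genes per length can therefore be compared only roughly. Density depends on mRNA amount, initiation and ribosome speed together, and matched RNA levels are not analysed here.

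Cells take up iron mainly by binding iron-loaded transferrin at the cell surface through the transferrin receptor, which carries it into endosomes. There the iron is released, reduced and moved into the cytosol by the transporter DMT1. Surplus iron is stored inside ferritin shells and is freed again when ferritin is delivered to lysosomes. The iron regulatory proteins bind hairpins in the transcripts of the receptor and of the ferritins when iron is scarce, which protects the first from decay and blocks translation of the second. Developing germ cells lie behind the blood-testis barrier and depend on iron passed to them through Sertoli cells.

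Tfrc and Fthl17a were the members with the largest differences between the genotypes. The stretches just before their annotated start sites are shown because these are the members whose levels stood apart together. Both sequences are from the RefSeq promoter table of GRCm38.p6, plus strand, 250 bases each, 5′ to 3′. Capitals mark matches on either strand to any of 4 short motifs that were searched. The hypoxia-type core was searched as ACGTG. The element of the cyclic AMP type was searched as TGACGT, which can overlap the former. The box bound by the factor NF-Y was searched as CCAAT. The core of a TATA box was searched as TATAA.
Tfrc, chr16:32608646-32608895: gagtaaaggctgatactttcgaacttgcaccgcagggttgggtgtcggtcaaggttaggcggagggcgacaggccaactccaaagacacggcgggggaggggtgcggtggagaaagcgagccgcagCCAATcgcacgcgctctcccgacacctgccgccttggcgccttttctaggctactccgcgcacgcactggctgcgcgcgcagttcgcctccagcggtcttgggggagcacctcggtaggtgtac
Fthl17a, chrX:85249427-85249676: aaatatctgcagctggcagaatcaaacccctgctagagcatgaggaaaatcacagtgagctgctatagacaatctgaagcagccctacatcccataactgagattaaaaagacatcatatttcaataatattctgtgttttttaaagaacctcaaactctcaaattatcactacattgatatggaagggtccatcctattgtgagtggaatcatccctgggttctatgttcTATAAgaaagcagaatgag
The Tfrc stretch had a GC content of 64.8% and 25 CpG dinucleotides, against 38.0% and 0 for Fthl17a and medians of 52.4% and 6 over all 32851 promoter entries. It held CCAAT once, 124 bases before the start, a motif found in 33.8% of entries on either strand. The Fthl17a stretch held TATAA once, 19 bases before the start, a motif found in 22.8% of entries. A second annotated Tfrc start lies downstream. The 250 bases before that start held the hypoxia-type core, the cyclic AMP-type element and the TATA core once each, which occur in 16.6%, 6.47% and 22.8% of entries. A match describes these letters only and no binding was measured.

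Before the members are described, the checks on the libraries were as follows. Eif5a, the targeted gene, had 48.3 ± 13.9 FPKM in wild type against 2.25 ± 0.642 FPKM in SKO (SD, n = 3 per group), and its groups did not overlap. Absolute depth is unknown. Steps between low values gave relative depths of 0.5 to 1, lowest in SKO replicate 2 and highest in SKO replicate 1, but only 23.8% of 2710 low rows fell into whole-number steps (within 2%), so no read counts were recovered. Rows matched to protein-coding genes held 22.5% to 28.5% of the summed FPKM in wild type. In SKO they held from 18.3% (replicate 1) to 33.1% (replicate 2). These are shares of values per length, and the share of mapped fragments is unknown. Of the 13 round spermatid markers, the 2 densest were abundant in all libraries, but not all were. Tssk1 had 1.85 ± 0.331 FPKM in wild type against 3.08 ± 0.814 FPKM in SKO, and Tssk2 1.06 ± 0.676 and 1.62 ± 1.28 FPKM. Acrv1, which encodes an acrosomal vesicle protein, had 403 ± 128 FPKM in wild type against 628 ± 236 FPKM in SKO, and the secreted-protein gene Dkkl1 had 640 ± 323 and 860 ± 313 FPKM.

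Tfrc encodes transferrin receptor 1, the main route of iron into most cells (gene identifier 22042, GRCm38 chromosome 16, 32608896 to 32632794). It had 2.50, 2.68 and 2.88 FPKM in wild-type replicates 1, 2 and 3 and 14.5, 24.9 and 17.3 FPKM in SKO replicates 1, 2 and 3. All SKO libraries lay far above all wild-type libraries, and SKO replicate 2 was the highest. The means were 2.69 ± 0.189 FPKM and 18.9 ± 5.37 FPKM (SD, n = 3 per group), with SKO 7.03 times as high. As log2(FPKM + 1) the difference was 2.40 (SE 0.35), where the added 1 keeps low values from dominating and shrinks folds of low genes.

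In level, Tfrc was in the middle of the table in wild type and in its upper part in SKO. Its wild-type mean was above that of 49.2% of protein-coding rows and its SKO mean above 86.0%. The wild-type libraries were close to one another, with a coefficient of variation of 7.02%. The median was 39.4% over the 2652 protein-coding rows with a wild-type mean between 2 and 4 FPKM, and 2.87% of those rows varied less than Tfrc. A small spread favours a call, and Tfrc was chosen through its call, so this rank is not independent of the choice. Among the SKO libraries the coefficient was 28.5%. With TMM-type scaling, which sets libraries level by a trimmed mean of log ratios, the libraries of a group lay at 16.4, 19.1 and 15.9 FPKM in SKO and 3.20, 2.93 and 2.57 FPKM in wild type. The scaled means differed 5.92-fold.

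**Figure D1:**
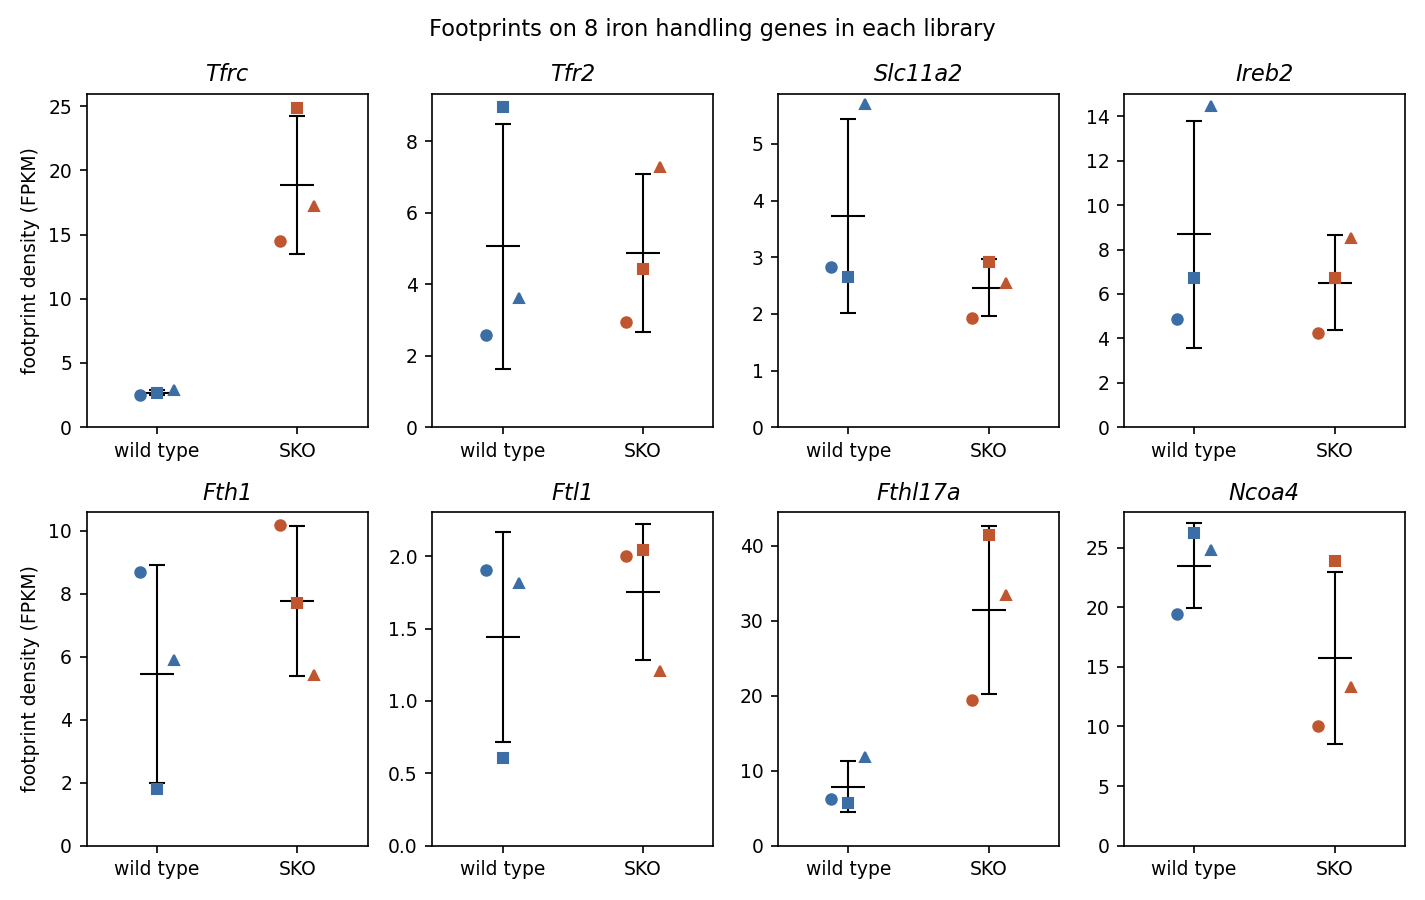
Footprint density in FPKM on the 8 iron handling genes, with 1 point per library (circle, square and triangle for replicates 1, 2 and 3), a dash at the group mean and bars of 1 SD. Tfrc and Fthl17a separate the genotypes, at 2.50 to 2.88 against 14.5 to 24.9 FPKM and 5.63 to 11.8 against 19.4 to 41.5 FPKM, while the other 6 genes overlap.

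The other receptor gene, Tfr2, overlapped between the genotypes. Tfr2 binds transferrin with lower affinity and is best known as an iron sensor of liver and red cell precursors (identifier 50765, chromosome 5, 137569822 to 137588081). It had 2.59, 8.98 and 3.62 FPKM in wild type against 2.94, 4.42 and 7.30 FPKM in SKO. The groups overlapped fully and 1 wild-type library was the highest of the 6. The log2 difference was 0.03 (SE 0.47, limma adjusted p = 0.988), and it changed sign under TMM-type scaling, to -0.14. Within each library the Tfrc density was 0.298 to 0.967 times that of Tfr2 in wild type against 2.36 to 5.63 times in SKO.

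Slc11a2 encodes DMT1, which carries ferrous iron out of the endosome (identifier 18174, chromosome 15, 100387898 to 100424209). It had 2.83, 2.66 and 5.70 FPKM in wild type against 1.92, 2.92 and 2.55 FPKM in SKO. Wild-type replicate 3 stood above the other 5 values, which lay close together. The means of 3.73 ± 1.71 and 2.46 ± 0.507 FPKM differed by -0.40 on the log2 scale (SE 0.36, limma adjusted p = 0.724). With TMM-type scaling the SKO libraries, at 2.17, 2.25 and 2.35 FPKM, all fell below the wild-type libraries at 3.61, 2.91 and 5.08 FPKM (scaled log2 difference -0.56, limma adjusted p = 0.407).

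Ireb2 encodes iron regulatory protein IRP2, which binds the iron-responsive hairpins and is itself destroyed when iron is plentiful (identifier 64602, chromosome 9, 54862658 to 54912534). It had 4.87, 6.71 and 14.5 FPKM in wild type against 4.25, 6.74 and 8.51 FPKM in SKO. The groups overlapped, and the highest value again came from wild-type replicate 3. The log2 difference was -0.29 (SE 0.45, limma adjusted p = 0.865). Without wild-type replicate 3 it was 0.12, so its sign rested on that library. Fbxl5, the iron-sensing ligase subunit that degrades IRP2, had 7.23 ± 0.508 FPKM in wild type against 5.71 ± 1.63 FPKM in SKO (SD, n = 3 per group, limma adjusted p = 0.778).

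The ferritin shell is built from heavy chains, which oxidise iron, and light chains, which help the mineral core to form. Fth1, the heavy chain (identifier 14319, chromosome 19, 9980600 to 9985111), had 8.68, 1.78 and 5.88 FPKM in wild type against 10.2, 7.71 and 5.40 FPKM in SKO. Ftl1, the light chain (identifier 14325, chromosome 7, 45457944 to 45459886), had 1.90, 0.606 and 1.82 FPKM in wild type against 2.00, 2.05 and 1.21 FPKM in SKO. Wild-type replicate 2 was the lowest library for both chains. Both pairs of groups overlapped, with log2 differences of 0.58 (SE 0.49, limma adjusted p = 0.700) for Fth1 and 0.21 (SE 0.37, limma adjusted p = 0.889) for Ftl1.

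The 2 chains could be compared with each other inside each library, a comparison that the choice of members did not use. Fth1 was denser than Ftl1 in 6 of 6 libraries, by 2.94-fold to 5.07-fold. The mean difference of log2(FPKM + 1) was 1.46 ± 0.387 (SD, n = 6), and the two-sided exact sign-flip test gave p = 0.0313, the smallest value that 6 libraries allow. Both chains have many pseudogenes in the mouse genome, and how reads shared with them were assigned is not stated, so their densities are uncertain. The pseudogene Ftl1-ps1 had a row of its own, at 0.997 ± 0.417 FPKM in wild type against 1.87 ± 0.729 FPKM in SKO.

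Fthl17a belongs to a family of X-linked ferritin heavy chain-like genes of the germ line (identifier 71996, chromosome X, 85249677 to 85270291). It had 6.17, 5.63 and 11.8 FPKM in wild type against 19.4, 41.5 and 33.4 FPKM in SKO. Each SKO library exceeded each wild-type library, the closest pair being SKO replicate 1 and wild-type replicate 3. The means of 7.85 ± 3.40 and 31.4 ± 11.2 FPKM (SD, n = 3 per group) differed 4.00-fold, and the log2 difference was 1.87 (SE 0.43). Copies Fthl17b to Fthl17f are not analysed here, and near-identical copies can share reads, so the value may belong to more than 1 locus. Protein-coding rows of the X chromosome as a whole had a median log2 difference of 0.77 over 364 tested rows, against 0.13 for all tested rows. Of those 364 rows, 91.8% had a smaller difference than Fthl17a and 29 other rows had one at least as large. Groups were apart, with SKO higher, for 182 of the 364 X-linked rows and 10.9% of all tested rows, so this separation is not particular to Fthl17a. Tfrc is autosomal, and 99.9% of the 10771 tested autosomal protein-coding rows, whose median was 0.10, had a smaller difference. Both genes were picked from earlier results of this comparison, so neither rank is independent of the choice.

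Ftmt, the intronless ferritin gene of mitochondria, whose product is abundant in testis, is no member of the list but was the densest ferritin gene in each wild-type library. It had 12.2, 19.3 and 23.5 FPKM in wild type against 13.6, 26.7 and 16.8 FPKM in SKO (log2 difference 0.05, SE 0.41, limma adjusted p = 0.983). The groups overlapped. Fthl17a had 0.291 to 0.507 times the density of Ftmt in wild type against 1.42 to 1.98 times in SKO. Among the summed footprints of Fth1, Ftl1, Ftmt and Fthl17a, Fthl17a made up 21.3%, 20.6% and 27.4% in wild type against 42.9%, 53.2% and 58.7% in SKO. The sum itself was 33.1 ± 8.57 FPKM in wild type against 60.0 ± 16.6 FPKM in SKO (SD, n = 3 per group).

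**Figure D2:**
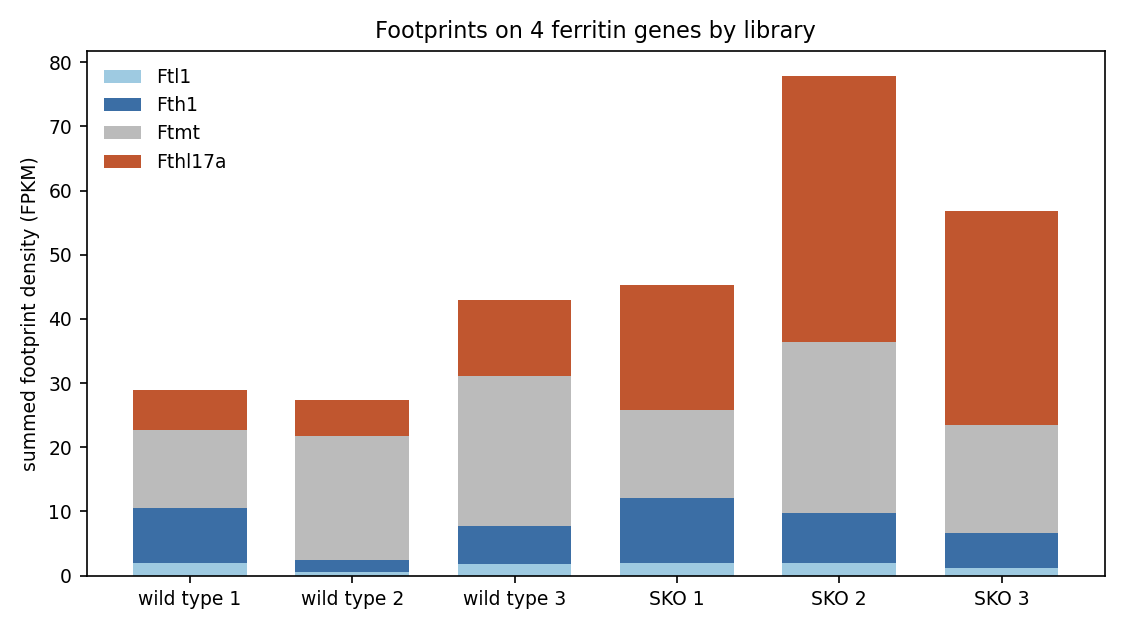
Stacked bars of the footprint density in FPKM of Ftl1, Fth1, Ftmt and Fthl17a in each of the 6 libraries. Ftmt is the widest band in the wild-type libraries and Fthl17a, at 42.9% to 58.7% of the sum, in the SKO libraries.

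Ncoa4, the receptor that carries ferritin to the lysosome, was the densest member in wild type (identifier 27057, chromosome 14, 32159879 to 32179855). It had 19.4, 26.2 and 24.8 FPKM in wild type against 10.0, 23.9 and 13.3 FPKM in SKO. Of the SKO libraries, 2 lay below all wild-type libraries and replicate 2 lay among them. The means of 23.5 ± 3.57 and 15.7 ± 7.23 FPKM differed by -0.62 on the log2 scale (SE 0.41, limma adjusted p = 0.621). Under TMM-type scaling the groups separated, at 24.8, 28.7 and 22.1 FPKM in wild type against 11.3, 18.4 and 12.3 FPKM in SKO, with a scaled log2 difference of -0.83 (limma adjusted p = 0.174). The lowest adjusted p over the alternative settings was 0.0831, so Ncoa4 passed the test in none of them.

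Ordered by wild-type mean per length, the members ran Ncoa4, Ireb2 (8.69 ± 5.10 FPKM), Fthl17a, Fth1 (5.45 ± 3.47 FPKM), Tfr2 (5.06 ± 3.43 FPKM), Slc11a2, Tfrc and Ftl1 (1.44 ± 0.726 FPKM). Ncoa4 stood clear of Ireb2, and Tfrc of Ftl1, in the values of single libraries, while all other neighbours in this order overlapped. In SKO the order was Fthl17a, Tfrc, Ncoa4, Fth1 (7.76 ± 2.38 FPKM), Ireb2 (6.50 ± 2.14 FPKM), Tfr2 (4.88 ± 2.22 FPKM), Slc11a2 and Ftl1 (1.75 ± 0.472 FPKM). There, neighbours overlapped except Tfr2 and Slc11a2, whose closest libraries were at 2.94 and 2.92 FPKM. Tfrc was next to last among the members in wild type and next to the top in SKO, and Ftl1 was the least dense in both genotypes.

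Across the table, 17 rows were called higher in SKO and 3 lower at an adjusted p under 0.05, which is 0.109% and 0.0193% of the 15578 tested rows. Of the 8 members, 1 was among the higher rows, namely Tfrc, the gene for which the list was made, and 0 were among the lower rows. At TMM-type scaling 0.558% of rows were called higher and 0.244% lower. The higher rows included 2 members, Tfrc and Fthl17a. Both had been picked from earlier results of this comparison, so their calls are no independent support. Groups that did not overlap, with SKO higher, were found for 2 of the 8 members and for 10.9% of all tested rows. With SKO lower they were found for 0 members and for 4.78% of rows. Under TMM-type scaling these shares of all rows were 10.7% and 10.9%, and 2 members lay on each side. The median log2 difference of the 8 members was 0.12, beside 0.13 over all tested rows.

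The call of Tfrc depended on the settings. It was among the called rows in 5 of 16 alternative settings and in 0 of the 6 that left out a library, whichever of the 6 libraries that was. The 5 included the filter at a mean of 5 FPKM, which Tfrc, at 2.69 FPKM in wild type, passed only through its SKO libraries. The groups of Tfrc were apart in 16 of 16, but only settings that rescale the libraries could have made them overlap. The other settings compare the same values or fewer of them. The log2 difference of Tfrc ran from 1.61 with a pseudocount of 5 to 2.73 with a pseudocount of 0.1. It ran from 2.19 to 2.56 when 1 library was left out. For Fthl17a the corresponding range over all settings was 1.48 to 2.17.

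The wider iron pathway was followed in 9 lists that include the members, 108 genes in all, of which 75 were tested. Tfrc was the 1 row called higher, and 0 rows were called lower. Among the 67 tested rows that are not members, limma called 0, and the lowest adjusted p outside Tfrc and Fthl17a was 0.288. At an unadjusted p under 0.05 stood 4 of the 73 rows other than these 2, beside 1710 of all 15578 rows. The 75 rows had a median log2 difference of -0.001, beside 0.13 for all rows, and 7 of them had groups apart with SKO higher and 0 with SKO lower, where 10.9% and 4.78% of all tested rows did. Under TMM-type scaling the counts were 7 and 4.

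**Figure D3:**
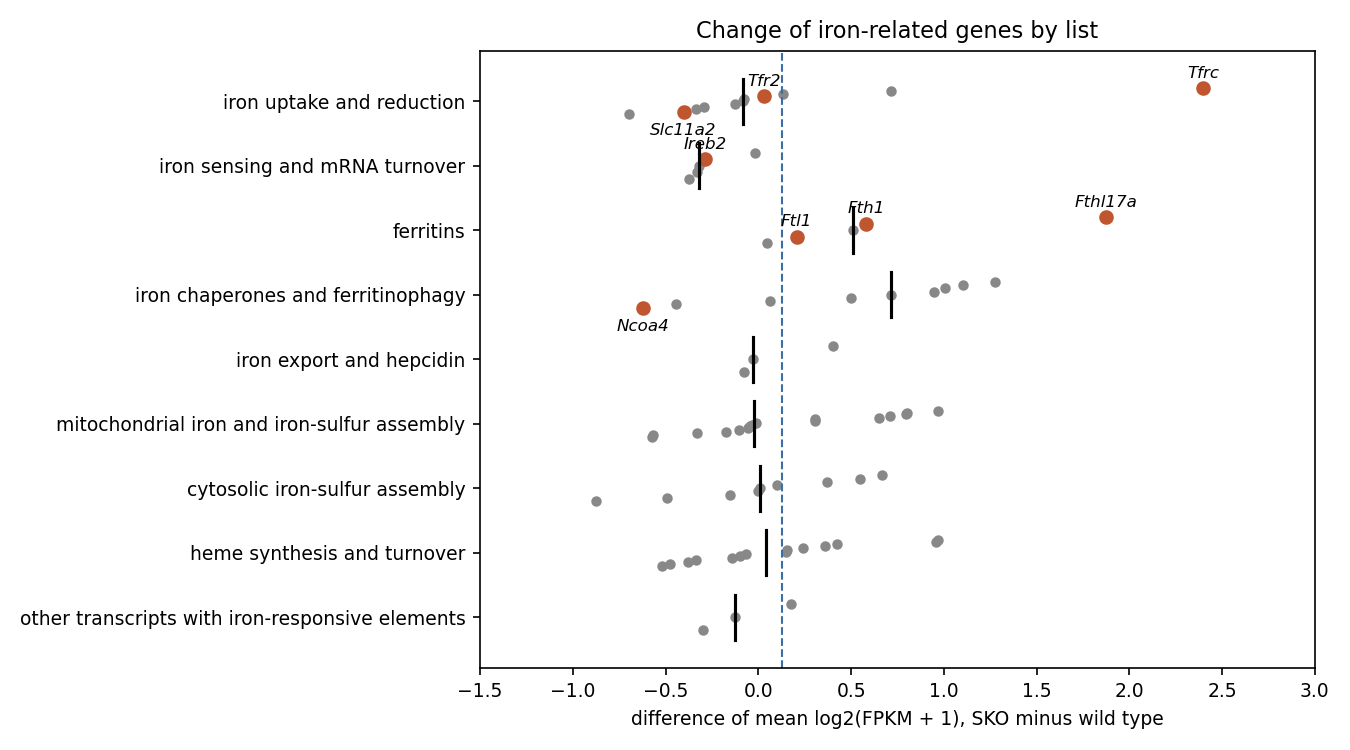
Difference of mean log2(FPKM + 1), SKO minus wild type, for each tested gene of 9 iron lists, with members in orange and named, other genes in grey, list medians as black bars and the median of all tested rows (0.13) as a dashed line. Tfrc (2.40) and Fthl17a (1.87) lie to the right of all other genes, which reach 1.28.

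Among the other genes of iron uptake, 8 tested rows besides the members, limma called none. Snx3, a sorting nexin that recycles the transferrin receptor to the cell surface, had 16.8 ± 5.75 FPKM in wild type against 28.3 ± 9.07 FPKM in SKO (log2 difference 0.72, SE 0.42, limma adjusted p = 0.577). Slc11a1, a divalent metal transporter of phagosomes, had 4.46 ± 1.14 and 5.38 ± 2.82 FPKM (limma adjusted p = 0.945). Trf, which encodes transferrin, the ligand of the receptor, had 3.38, 0.111 and 2.11 FPKM in wild type against 1.07, 1.07 and 1.73 FPKM in SKO, with SKO inside the wild-type range. Of the list on iron sensing and mRNA turnover, 5 rows were tested and 0 called, at a median log2 difference of -0.32. Rc3h2, a Roquin protein that promotes mRNA decay, had 3.56 ± 0.851 and 2.57 ± 1.07 FPKM, and Zc3h12a, the Regnase-1 nuclease that cleaves the Tfrc transcript, had 1.38 ± 0.671 and 0.969 ± 0.890 FPKM (limma adjusted p = 0.836).

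The iron chaperone and ferritin-turnover list had the highest median of the 9, at 0.71 over 9 tested rows, and 0 of them were called. The poly(rC)-binding proteins, which bind RNA and also deliver iron to ferritin, accounted for the rows with groups apart. Pcbp3, the densest of them, had 17.1, 15.0 and 24.3 FPKM in wild type against 34.9, 60.1 and 46.3 FPKM in SKO (log2 difference 1.28, SE 0.39, limma adjusted p = 0.288). Pcbp2 had 14.1 ± 5.91 and 28.1 ± 4.56 FPKM (limma adjusted p = 0.405), and Pcbp1 had 1.92 ± 0.532 and 5.44 ± 1.97 FPKM (limma adjusted p = 0.320). Each SKO library exceeded each wild-type library for these 3 genes. Pcbp4 overlapped between groups, at 10.1 ± 4.13 and 17.5 ± 9.03 FPKM. Pcbp3 was among the called rows when libraries were scaled to equal protein-coding sums (limma adjusted p = 0.031) and after quantile normalization (limma adjusted p = 0.0428). Glrx3, a glutaredoxin that hands on iron-sulfur clusters, had 17.2 ± 7.42 FPKM in wild type against 34.1 ± 13.3 FPKM in SKO (limma adjusted p = 0.491).

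The remaining lists lay near the table's median and had 0 called rows (limma). Mitochondrial iron and iron-sulfur assembly had 16 tested rows with a median of -0.02. Its densest rows were the chaperone gene Hspa9, at 40.8 ± 21.1 and 37.1 ± 9.36 FPKM, and Bola3, which helps to pass on clusters, at 22.7 ± 15.7 and 35.6 ± 11.3 FPKM. Hscb, the co-chaperone of cluster transfer, had groups apart, at 7.35 ± 3.21 and 14.8 ± 4.48 FPKM (limma adjusted p = 0.455). The cytosolic assembly list had 9 tested rows and a median of 0.01. Ciapin1, an electron carrier of that pathway, had 25.3 ± 10.1 and 40.4 ± 21.6 FPKM, and the scaffold gene Nubp2 had 19.5 ± 5.69 and 20.6 ± 9.14 FPKM.

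Heme genes, 14 tested rows, had a median of 0.04. Hmox2, the constitutive heme oxygenase, had 35.2 ± 9.80 and 40.5 ± 15.2 FPKM, and Alas1, the first enzyme of heme synthesis outside red cells, had 22.7 ± 11.8 and 14.9 ± 6.13 FPKM. Flvcr1, known as a heme exporter, had 0.512, 1.08 and 0.956 FPKM in wild type against 3.06, 1.32 and 3.88 FPKM in SKO (limma adjusted p = 0.404). Its groups were apart with the deposited values and overlapped under TMM-type scaling. Other transcripts known to carry iron-responsive hairpins had 3 tested rows and a median of -0.12. Among them the phosphatase gene Cdc14a had 5.47 ± 3.46 and 4.05 ± 1.88 FPKM (limma adjusted p = 0.861). Iron export and hepcidin had 3 tested rows and a median of -0.03, with the ferroxidase gene Cp at 3.81 ± 0.919 and 5.34 ± 1.03 FPKM and the hepcidin gene Hamp at 2.48 ± 3.81 and 1.61 ± 1.41 FPKM.

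Markers of somatic testis cells moved with the genotype in the same direction as Tfrc. The 4 peritubular markers with values summed to 4.54 to 6.19 FPKM in wild type against 25.8 to 39.2 FPKM in SKO. The 6 Sertoli cell markers summed to 18.3 to 27.1 and 72.4 to 102 FPKM, and the 7 Leydig cell markers to 13.6 to 18.6 and 61.2 to 118 FPKM. Groups were apart, with SKO higher, for 4 of 4, 4 of 6 and 5 of 7 of these genes, beside 10.9% of all tested rows. None was at 0 throughout a group. Among the genes counted, Cnn1 and Aard averaged 0.516 and 0.768 FPKM in wild type. They passed the filter at 1 FPKM only through their SKO libraries. The defining Sertoli genes Sox9, Wt1, Gata4, Amh and Fshr are not analysed here. Acta2, smooth muscle actin, had 2.93 ± 1.04 and 17.2 ± 4.48 FPKM, and Dcn, the matrix proteoglycan decorin, had 1.11 ± 0.289 and 8.96 ± 1.33 FPKM and was the 1 gene called in these 3 lists (limma adjusted p = 0.0470). Clu, clusterin, had 5.57 ± 2.14 and 27.7 ± 3.69 FPKM, and Ctsl, cathepsin L, had 7.44 ± 2.99 and 28.0 ± 7.71 FPKM. Insl3, a Leydig cell hormone, had 5.43 ± 4.13 and 36.8 ± 17.4 FPKM, and Cyp17a1, an enzyme of androgen synthesis, 2.58 ± 1.71 and 18.0 ± 7.16 FPKM.

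The ratio of Tfrc to 2 of these somatic markers, Acta2 and Clu, overlapped between the genotypes. Ratios to the other markers are not given, and folds within the Sertoli, Leydig and peritubular lists differed widely. SKO over wild type ranged from 1.12 for Dhh to 8.08 for Dcn, beside 7.03 for Tfrc. The ratio of Tfrc to Acta2 was 0.724 to 1.41 in wild type against 0.824 to 1.38 in SKO, and that of Tfrc to Clu 0.401 to 0.796 and 0.541 to 0.996. Relative to the spermatid marker Acrv1, Tfrc went from 0.00534 to 0.00872 in wild type to 0.0284 to 0.0358 in SKO. Their part in the Tfrc result was not tested. In bulk samples more cells of a type and more RNA per cell cannot be told apart.

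Other cell types gave smaller or opposite shifts. Summed macrophage markers, 6 genes, ran from 3.82 to 9.02 FPKM in wild type against 5.29 to 6.81 FPKM in SKO. Cd68, a lysosomal protein of macrophages, had 2.08 ± 1.73 and 0.964 ± 0.889 FPKM, and the lysozyme gene Lyz2 had 0.780 ± 0.144 and 1.68 ± 0.178 FPKM. Summed spermatogonial markers, 6 genes, ran from 12.8 to 14.7 and 14.6 to 20.8 FPKM, with Uchl1, a deubiquitinase gene, at 4.96 ± 0.422 and 8.88 ± 4.67 FPKM and the receptor gene Kit at 4.58 ± 1.31 and 4.84 ± 2.86 FPKM. The 14 spermatocyte markers ran from 225 to 447 and 377 to 701 FPKM. Most of that gap came from Ybx2, a germ cell mRNA-binding protein gene at 102 ± 38.2 and 299 ± 89.6 FPKM, while Syce1, of the synaptonemal complex, had 64.8 ± 19.5 and 73.0 ± 34.7 FPKM. Elongating spermatid markers, 10 genes, ran from 245 to 369 and 301 to 486 FPKM, led by Odf2, of the sperm tail's outer dense fibres, at 131 ± 33.8 and 205 ± 64.4 FPKM, and Prm3, a protamine-related gene, at 31.2 ± 13.5 and 61.2 ± 23.8 FPKM. Other genes of that list had lower means in SKO, among them the transition protein gene Tnp1 at 44.0 ± 11.8 and 31.7 ± 7.05 FPKM and the protamine gene Prm2 at 11.1 ± 1.33 and 7.81 ± 3.45 FPKM. All 10 overlapped as deposited, and under TMM-type scaling 2 had groups apart with SKO higher and 2 with SKO lower. Over all tested rows these scaled shares were 10.7% and 10.9%. Red blood cell markers, from cells whose precursors take up much iron through Tfrc, summed to less in SKO, at 53.3 to 113 FPKM in wild type against 25.0 to 42.5 FPKM in SKO over 5 genes. Groups were apart, with SKO lower, for the 4 globin genes, beside 4.78% of all tested rows. Among them Hbb-bs had 27.5 ± 9.53 and 9.38 ± 5.81 FPKM and Hba-a2 21.3 ± 10.6 and 7.84 ± 3.69 FPKM. The remaining gene, the anion exchanger Slc4a1, overlapped at 2.10 ± 1.08 and 7.42 ± 6.07 FPKM. The round spermatid list, 13 genes, summed to 1010 to 2168 and 1584 to 3345 FPKM, at a median log2 difference of 0.83, and 0 of its genes were called (limma). Groups were apart, with SKO higher, for 6 of the 13 genes, and for 9 under TMM-type scaling, beside 10.9% and 10.7% of all tested rows. The widest gap in that list was that of Lyzl1, a lysozyme-like gene, at 48.6 ± 9.01 and 155 ± 60.4 FPKM (limma adjusted p = 0.221).

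**Figure D4:**
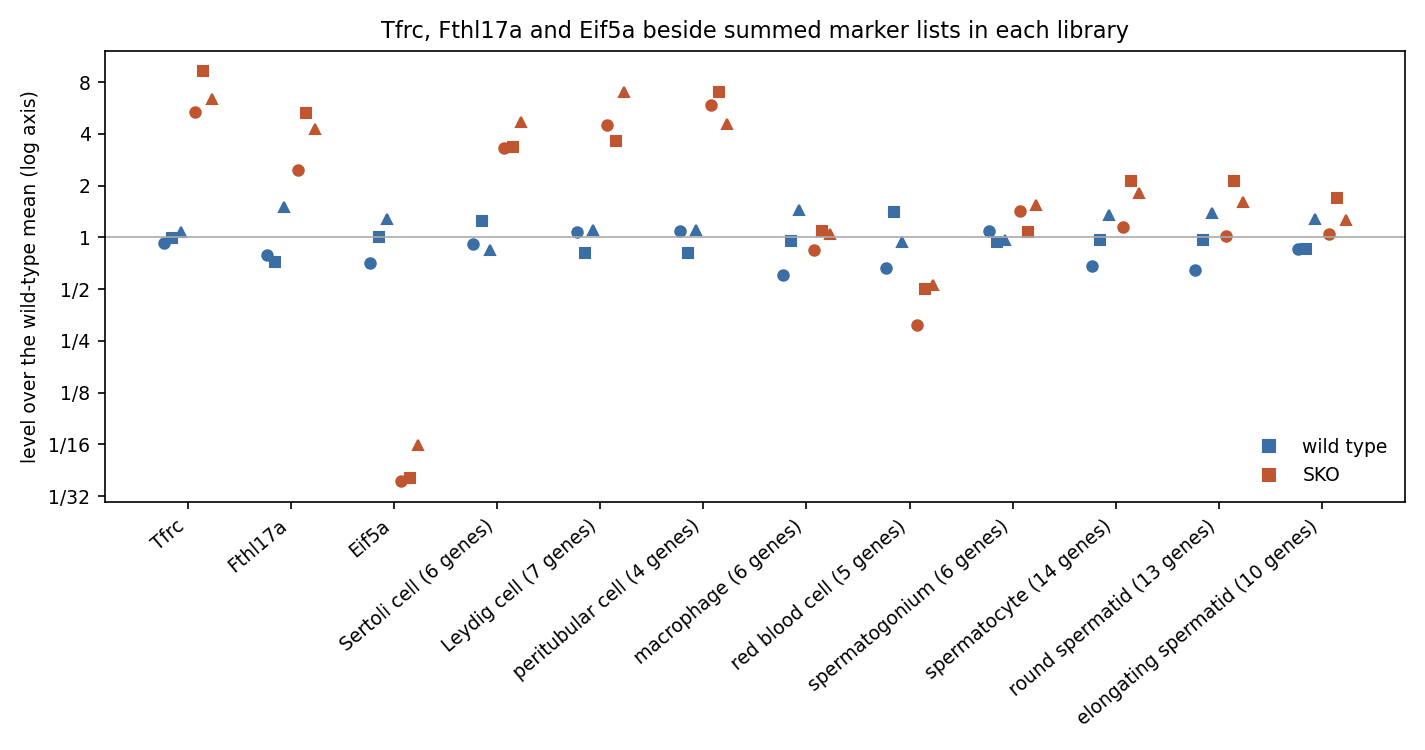
Level of Tfrc, Fthl17a and Eif5a and the summed level of 9 marker lists in each library, divided by the wild-type mean, on a log axis (circle, square and triangle for replicates 1, 2 and 3). Tfrc, Fthl17a and the Sertoli, Leydig and peritubular sums are above 1 in all SKO libraries with no overlap, Eif5a and the red blood cell sum are below the wild-type libraries, and the other 5 lists overlap.

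The rows whose pattern over the 6 libraries was most like that of Tfrc were sought among 4688 protein-coding rows averaging at least 5 FPKM, by the root mean square difference of centred log2(FPKM + 1) profiles. The closest was Ube2dnl2, an X-linked gene of the ubiquitin-conjugating E2 family, at a distance of 0.09, beside a median of 1.19 over all candidates. It had 4.88, 5.49 and 5.82 FPKM in wild type against 21.7, 44.1 and 30.5 FPKM in SKO, with SKO replicate 2 the highest as for Tfrc. The next was Sparc, a matrix glycoprotein gene, at a distance of 0.18, with 8.19, 7.43 and 9.03 FPKM in wild type against 27.5, 52.9 and 38.7 FPKM in SKO. The remaining 3 of the 5 nearest rows were those of the X-linked histone variant genes H2al1c, H2al1d and H2al1f, also at 0.18, which have the same 6 values and are 1 measurement here, at 1.16 ± 0.237 and 13.1 ± 3.39 FPKM. The H2al1 rows reached the mean of 5 FPKM only through their SKO libraries. Tfrc was chosen for its genotype difference, so a search by its profile returns rows with a like difference by construction. These likenesses describe 6 libraries in 2 groups and were not tested.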

How the data were processed

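Per the labels' protocols, RNase I digested the lysates of round spermatids, a sucrose cushion separated the ribosomes, and protected fragments were gel-selected and made into small RNA libraries. The deposited values are FPKM, computed by the authors, 1 per gene symbol and library. The submitters' processing notes name cutadapt, Bowtie2, STAR, Cufflinks and mm10, without roles. Annotation and treatment of multi-mapping reads: not given in the sources used here.

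The members and lists were chosen with earlier results of these data known. The 15578 rows averaging 1 FPKM or more entered the test, and 7192 did not. SKO was compared with wild type on log2(FPKM + 1) by a two-sided limma test (version 3.58.1, R 4.3.3, eBayes with a mean trend), and p-values were adjusted by Benjamini-Hochberg across those rows, with calls at 0.05. No replicate block was used: same-numbered libraries' deviations correlated at 0.0926, 0.000158 and 0.0243. TMM-type factors (0.783 to 1.30) came from tested rows, with 0.3 of the ratios and 0.05 of the levels trimmed at each end. Named genes are the members, called rows and the 2 densest of each list, and Tfrc's 5 nearest rows. Of these, 1 gene is not reported here. Hscb, Flvcr1, Slc4a1, Lyzl1, Tnp1, Prm2, Trf, Zc3h12a, Pcbp1, Pcbp2, Pcbp4, Ftl1-ps1, Tssk1, Tssk2, Cnn1 and Aard were named after their values were seen. Identifiers, coordinates and promoter sequences are RefSeq's for GRCm38, and 7 of the 8 members had a promoter entry. A planned comparison of Ireb2 with Aco1 was not run.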

Additional observations from a re-analysis of the deposited data

How the results depend on the processing

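The 20 called rows became 4 with a pseudocount of 5, 5 with no filter, 86 with a mean of at least 5 FPKM, 125 with TMM-type scaling (87 higher, 38 lower, beside 17 and 3 as deposited, while the median of all rows went from 0.13 to -0.03), 517 with equal protein-coding sums, 446 with quantile normalization and 5 with the replicate block, and 4 to 27 with 1 library left out. Called members, and likewise called rows of the iron lists, numbered 1 with the values as deposited and 0 with a pseudocount of 5, no filter, equal sums over all rows, eBayes without a trend, the replicate block and each library left out. Called members were 2, Tfrc and Fthl17a, under the filter at 5 FPKM, TMM-type scaling, equal protein-coding sums and quantile normalization. Tfrc and Fthl17a were both picked from earlier results of this comparison. Called iron-list rows in those settings were 2, 2, 3 and 3. Iron-list rows with groups apart and SKO higher were 9 to 16 with 1 library left out. Fewer libraries make separation easier for every row, and the shares of all rows in these fits are not given. The count is therefore not read as a result about iron genes. Fth1 minus Ftl1 was 1.37 to 1.59 with 1 library left out, where 5 libraries allow no p below 0.0625.

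The log2 difference of Tfr2 turned to -0.14 with TMM-type scaling, -0.16 with equal protein-coding sums, -0.11 with equal sums over all rows and -0.11 with quantile normalization, and ran from -0.27 to 0.46 with 1 library left out. With 1 library left out, Ftl1 ran from -0.071 (without wild-type replicate 2) to 0.36 and Ireb2 from -0.58 to 0.12 (without wild-type replicate 3). The causes were not tested. Tfrc, Fthl17a, Fth1, Slc11a2 and Ncoa4 kept their direction in all settings run for them, but with 1 library left out Fth1 ran from 0.065 (without wild-type replicate 2) to 0.96 (without wild-type replicate 1), Slc11a2 from -0.56 to -0.12 (without wild-type replicate 3) and Ncoa4 from -0.95 (without SKO replicate 2) to -0.36 (without SKO replicate 1). Ftl1, Tfr2 and Slc11a2 were not tested at a mean of at least 5 FPKM. Absolute depth is unknown, so its limit on low rows could not be given.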
